A study of Homo sapiens with 6 samples.

Results

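The LSD1-CoREST complex genes, as grouped here, are KDM1A, KDM1B, RCOR1, RCOR3, HDAC1, HDAC2, PHF21A, HMG20B and ZMYM2, and the question was where V5-tagged GSE1 lay relative to the genes that code for LSD1 and its partners. They were chosen by name, as the genes for LSD1, its partners and their close relatives, and all 9 were found among 20033 protein-coding genes of GENCODE version 44 (hg38, chromosomes 1 to 22, X and Y). A peak was assigned to a gene when it overlapped the gene span extended by 20 kb on each side, which is called the window here. By this rule the genes held 4 of the 21401 peaks found in DMSO-treated cells and 1 of the 13233 peaks found in MC2580-treated cells.

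The V5 tag was used to precipitate GSE1-bound chromatin (ChIP-seq) from NB4 cells, a human acute promyelocytic leukemia line, transduced with the lentiviral pLEX_307 vector carrying GSE1 transcript variant 2, and treated for 24 h with the LSD1 inhibitor MC2580 at 2 µM or with its vehicle DMSO. Cells with the empty vector (EV), for which no dose or time of treatment is given, gave the control ChIP. Each of the 3 ChIPs had an input, so that the series held 6 libraries and each group 1 library. All GSE1 cells kept their own GSE1 gene beside the added, tagged copy, and only the tagged protein was precipitated. A peak is a region in which the authors' peak caller found more ChIP reads than in the background, and its score is minus 10 times the log10 of the caller's p-value, so that the calling threshold of 1e-05 equals a score of 50. No condition was repeated and read depth is not known, so the lists are compared as libraries and without a test between the conditions. Both lists were called against the same EV ChIP.

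LSD1 (KDM1A) is a flavin-dependent enzyme that removes methyl groups from histone tails, and in its best known setting it works as part of a corepressor. In that complex CoREST (RCOR1) is the scaffold that holds LSD1 on nucleosomes and joins it to the histone deacetylases HDAC1 and HDAC2, while PHF21A, HMG20B and ZMYM2 are further subunits or partners that contact histones, DNA or modified proteins. In myeloid cells DNA-binding repressors such as GFI1 bring the complex to their target genes, and GSE1 is a protein found with it.

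In DMSO-treated cells 3 of the 9 genes had a peak in their window, beside 36.2% of all protein-coding genes. The 3 were RCOR1 with 1 peak just upstream of its start, KDM1A with 2 peaks in its flanks and HDAC1 with 1 peak downstream of its end. In MC2580-treated cells RCOR1 alone had a peak, and it overlapped the DMSO peak there. Of all protein-coding genes 20.1% had an MC2580 peak in their window. Of all MC2580 peaks 58% overlapped a DMSO peak. KDM1B, RCOR3, HDAC2, PHF21A, HMG20B and ZMYM2 had no peak in either list. None of the 5 peaks lay over the body of a member gene. Of all protein-coding genes 22.9% had a DMSO peak over the body and 12.3% an MC2580 peak.

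**Figure D1:**
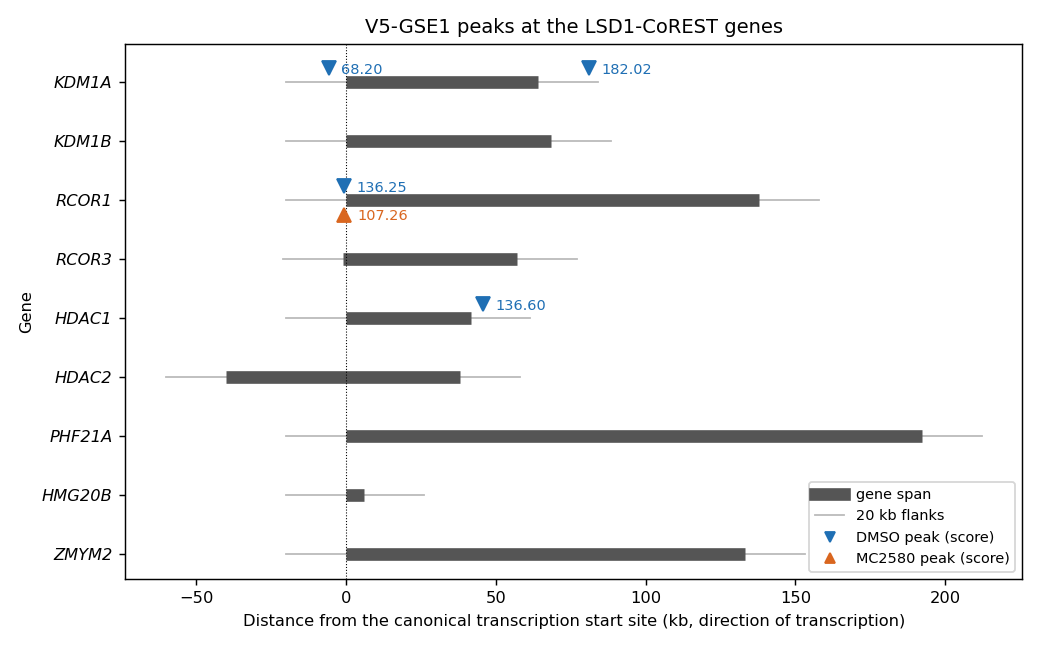
Peaks at the 9 genes, plotted as the distance of the peak's middle from the canonical transcription start site in kb along the direction of transcription. Thick grey bars are gene spans, thin lines the 20 kb flanks, triangles pointing down DMSO peaks and the triangle pointing up the MC2580 peak, each with its score (68.2 and 182.02 at KDM1A, 136.25 and 107.26 at RCOR1, 136.6 at HDAC1); every triangle lies outside the grey bars.

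The sequences at the middle of the 3 DMSO peaks of KDM1A and HDAC1 are shown because tagged GSE1 was called at these sites in DMSO alone. Each is 300 bp from hg38, plus strand, with matches to the words searched in capitals. The KDM1A upstream site is at chr1:23013531-23013830 and the KDM1A downstream site at chr1:23100298-23100597. The HDAC1 downstream site is at chr1:32337573-32337872.
KDM1A upstream: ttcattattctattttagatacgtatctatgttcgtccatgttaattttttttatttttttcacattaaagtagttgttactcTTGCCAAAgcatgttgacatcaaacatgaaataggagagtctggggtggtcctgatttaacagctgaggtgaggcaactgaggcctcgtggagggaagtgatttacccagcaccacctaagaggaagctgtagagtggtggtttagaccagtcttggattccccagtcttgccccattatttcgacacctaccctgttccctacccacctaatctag
KDM1A downstream: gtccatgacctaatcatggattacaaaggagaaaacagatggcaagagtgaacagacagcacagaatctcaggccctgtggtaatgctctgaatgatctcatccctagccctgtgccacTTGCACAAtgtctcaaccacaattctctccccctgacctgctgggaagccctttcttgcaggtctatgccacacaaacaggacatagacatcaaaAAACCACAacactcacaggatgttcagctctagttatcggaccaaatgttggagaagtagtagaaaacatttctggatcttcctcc
HDAC1 downstream: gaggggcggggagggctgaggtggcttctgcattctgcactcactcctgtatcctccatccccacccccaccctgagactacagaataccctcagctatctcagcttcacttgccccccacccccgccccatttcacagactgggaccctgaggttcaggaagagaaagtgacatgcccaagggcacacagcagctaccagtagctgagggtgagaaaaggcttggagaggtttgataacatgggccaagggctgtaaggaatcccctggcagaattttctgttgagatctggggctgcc

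The 3 sites differed in base content. Of the bases 42.3% were G or C at the KDM1A upstream site, 46.3% at the KDM1A downstream site and 57% at the HDAC1 downstream site, against a median of 48.7% over the same windows of all DMSO peaks. They held 4, 1 and 2 CpG dinucleotides in the same order, against a median of 4.

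Words for 7 factors or factor families of myeloid cells were searched on both strands of these windows, namely AATCNNNGC (GFI1), GAGGAAGT (PU.1), TGTGGTTT (RUNX), TGANTCA (AP-1), TTGCNNAA (CEBP), GAAANNGAA (IRF) and, for the GATA family of erythroid and stem cell regulators, the word AGATAA. The KDM1A upstream window had 1 CEBP match, TTGCCAAA, and the KDM1A downstream window had 1 CEBP match, TTGCACAA, and 1 RUNX match on the minus strand, read as AAACCACA on the plus strand. None of the 7 words occurred in the HDAC1 window. The CEBP word occurred in 19.1% of all DMSO windows (Wilson 95% interval 18.5 to 19.6), the RUNX word in 6.07% (5.75 to 6.39), the GFI1 word in 20.9%, the PU.1 word in 4%, the AP-1 word in 13.1%, the IRF word in 9.98% and the word of the GATA family in 15.5%. A match is a string of letters and was not read as a bound site.

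RCOR1, the CoREST scaffold, was the gene with a peak in both lists. It lies on the plus strand of chromosome 14 from 102592649 to 102730561 (ENSG00000089902.10), and its canonical start site is the first base of that span. The DMSO peak ran from 102591448 to 102592589, was 1142 bp wide and ended 60 bp before the start site, with a score of 136.25. The MC2580 peak ran from 102591687 to 102592527, was 841 bp wide and ended 122 bp before the start site, with a score of 107.26. Neither peak reached an annotated exon of any gene, and the nearest start site of any gene was that of RCOR1.

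The MC2580 peak at RCOR1 lay wholly inside the DMSO peak, and the 841 bp that they shared were 73.6% of the DMSO peak. Overlap with a DMSO peak was also found for 67% of the MC2580 peaks in its score decile (89.86 to 108.14). On chromosome 14 it was found for 89.1% of 46 MC2580 peaks. Both peaks stood at about the same place in their lists, since 70.1% of DMSO peaks and 69.7% of MC2580 peaks had a lower score. The ratio of the MC2580 to the DMSO score was 0.787. Over 5449 pairs of 1 DMSO and 1 MC2580 peak the median ratio was 0.638 (quartiles 0.385 and 0.966), and 62.8% of the pairs had a lower ratio than RCOR1. A score grows with depth, so these ratios do not separate binding from depth. Of the 300 bp that RefSeq (GRCh38.p14) gives as the RCOR1 promoter, the DMSO peak covered 191 bp and the MC2580 peak 129 bp.

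KDM1A, which codes for LSD1 itself, had 2 DMSO peaks and no MC2580 peak. The gene spans chromosome 1 from 23019443 to 23083689 on the plus strand (ENSG00000004487.18). The first peak (23013248 to 23014112, 865 bp, score 68.2) lay 5331 bp upstream of the nearest KDM1A start site. It covered the start site and a coding exon of the neighbouring gene TEX46. The second peak (23099927 to 23100967, 1041 bp, score 182.02) lay 16238 bp beyond the end of KDM1A, in an intron of LUZP1, 19054 bp from the nearest KDM1A start site and 80459 bp from the canonical one. A long non-coding RNA gene had the nearest start site of any gene to it, 11869 bp away. The second peak had the highest score of the 5, above 79.1% of the DMSO list, whereas the first was above 28.6% of it. No peak touched the KDM1A promoter itself, and the nearest MC2580 peak was 636973 bp from the second and 723828 bp from the first.

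HDAC1, one of the catalytic deacetylases of the complex, had 1 DMSO peak and no MC2580 peak. The gene lies on the plus strand of chromosome 1 from 32292083 to 32333635 (ENSG00000116478.12). The peak (32337052 to 32338393, 1342 bp, score 136.6) was 3417 bp beyond the end of HDAC1 and 5516 bp from its nearest annotated start site, which lies near the end of the gene, while the canonical start site was 44969 bp away. It was nearer to MARCKSL1, a gene for a MARCKS-like actin-binding protein, whose start site was 819 bp away. The peak overlapped no annotated gene. Its score was above 70.2% of the DMSO list, close to that of RCOR1, but the nearest MC2580 peak was 396739 bp away.

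**Figure D2:**
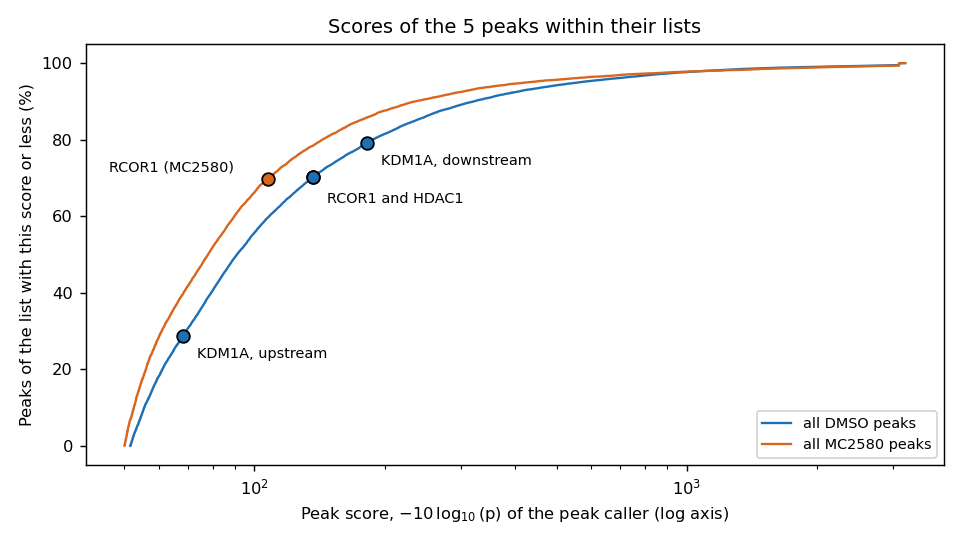
Scores of the 5 peaks (points) within their lists, with the score on a log axis and the percentage of the list at or below that score on the other axis; blue is DMSO and orange MC2580. The KDM1A upstream peak sits at a score of 68.2 in the lower part of the DMSO curve, the other 4 points between 107.26 and 182.02 in its upper part or that of MC2580.

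Of the 4 DMSO peaks 3 were thus within 3 kb of the start site of a protein-coding gene, beside 24.4% of all DMSO peaks, but that gene was a complex member only at RCOR1. The 4 peaks were chosen for lying near genes, so nothing is read from this count. The other promoters were those of TEX46 and MARCKSL1. For KDM1A and HDAC1 the peaks are therefore given by position, and which gene they belong to was not tested.

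Of the 4 DMSO peaks 1 (25%, Wilson 95% interval 4.56 to 69.9) overlapped an MC2580 peak, beside 33.6% of all DMSO peaks. On chromosome 1, where the 3 others lie, 27.3% of 715 DMSO peaks overlapped one, and on chromosome 14 22.5% of 182 did. Among DMSO peaks of the same score decile as RCOR1, HDAC1 and the KDM1A downstream peak (135.83 to 187.29) the share was 45.6%, and in that of the KDM1A upstream peak (61.25 to 69.43) it was 14.6%. Each of these shares lies within the interval of the members' share, but with 4 peaks that interval is so wide that nothing is read from this. The intervals cover counting error only.

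The 6 genes without a peak differed in how far away tagged GSE1 was called. KDM1B, a paralog of LSD1 that was counted here for its kinship to it, came nearest to having one in the DMSO list, though not in the MC2580 list. Its nearest DMSO peak (score 52.84, close to the threshold) lay 39396 bp upstream of the gene, and its nearest MC2580 peak 310445 bp downstream. The window limit of 20 kb therefore fell between 16238 bp (the KDM1A downstream peak, inside) and 39396 bp (KDM1B, outside).

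RCOR3, a paralog of CoREST, had its nearest peak 198573 bp downstream in the DMSO list and 198614 bp downstream in the MC2580 list. These were overlapping peaks at one site (scores 162.49 and 68.01). HDAC2, the other deacetylase, was the most remote. Its nearest peaks lay 1646456 bp (DMSO, score 186.84) and 1646440 bp (MC2580, score 113.23) downstream, again at one site, and 97% of protein-coding genes had a DMSO peak nearer than that. The 1 Mb bin with the canonical HDAC2 start site held 0 peaks of either list.

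PHF21A, a histone reader, had its nearest DMSO peak 102149 bp and its nearest MC2580 peak 209467 bp away. For ZMYM2, a zinc-finger partner of the complex, the distances were 82550 and 259182 bp. For HMG20B, an HMG-box subunit, they were 143560 and 1308515 bp, although chromosome 19 carried 24.4 DMSO and 24.7 MC2580 peaks per Mb. The 1 Mb bin of HMG20B held 3 DMSO and 0 MC2580 peaks, so the gene lay away from the parts of that chromosome where peaks are dense.

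**Figure D3:**
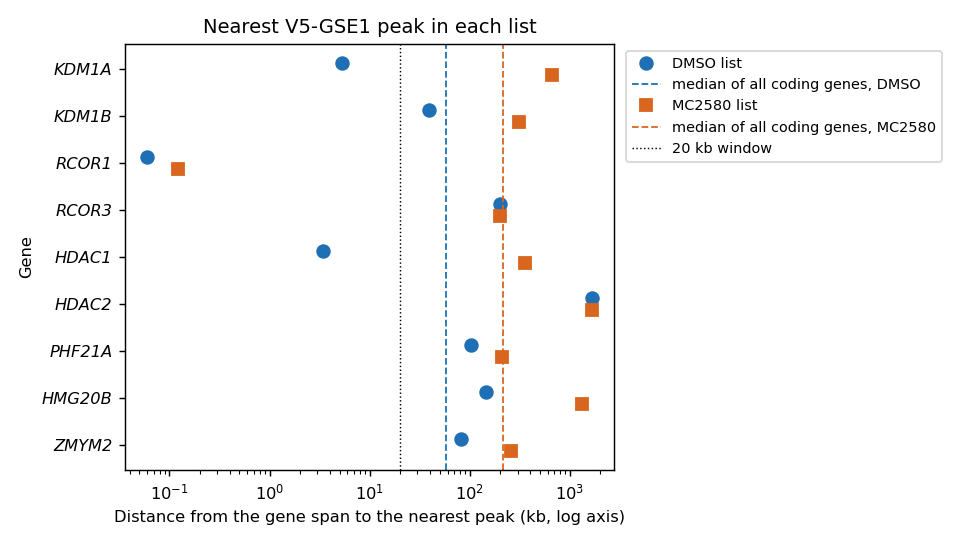
Distance in kb (log axis) from each gene span to the nearest DMSO peak (blue circles) and MC2580 peak (orange squares), with the 20 kb limit dotted and the medians of all protein-coding genes dashed (57.2 kb for DMSO and 213.0 kb for MC2580). RCOR1 alone has both symbols left of the limit, KDM1A and HDAC1 have only the circle there, and the symbols of RCOR3 and of HDAC2 coincide.

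Across the 9 genes the median distance to the nearest peak was 82.5 kb in the DMSO list and 310.4 kb in the MC2580 list, beside 57.2 and 213.0 kb over all protein-coding genes. The nearest MC2580 peak was farther away than the nearest DMSO peak for 8 of the 9 genes and 16 bp nearer for HDAC2, and for RCOR1 and RCOR3 the difference was 62 and 41 bp. The MC2580 list holds fewer peaks over the whole genome, and its nearest peak was the farther one for 78.6% of all protein-coding genes.

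The counts were set beside those of all 20033 protein-coding genes under the same rules. A DMSO peak in the window was found for 3 of 9 genes (33.3%, Wilson 95% interval 12.1 to 64.6), against a background of 36.2%. An MC2580 peak was found for 1 of 9 (11.1%, 1.99 to 43.5), against 20.1%. A peak within 3 kb of one of the gene's own start sites was found for 1 of 9 in each list, against 16.1% in DMSO and 7.87% in MC2580. A DMSO peak in the window that overlapped an MC2580 peak was found for 1 of 9, against 13.3%. A peak over the gene body was found for 0 of 9 in either list (upper Wilson limit 29.9%), against 22.9% in DMSO and 12.3% in MC2580. Each background lies within the interval of the members' share, so none of these counts sets the genes apart. With 9 genes the intervals are wide, and a difference from the background could go unseen.

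**Figure D4:**
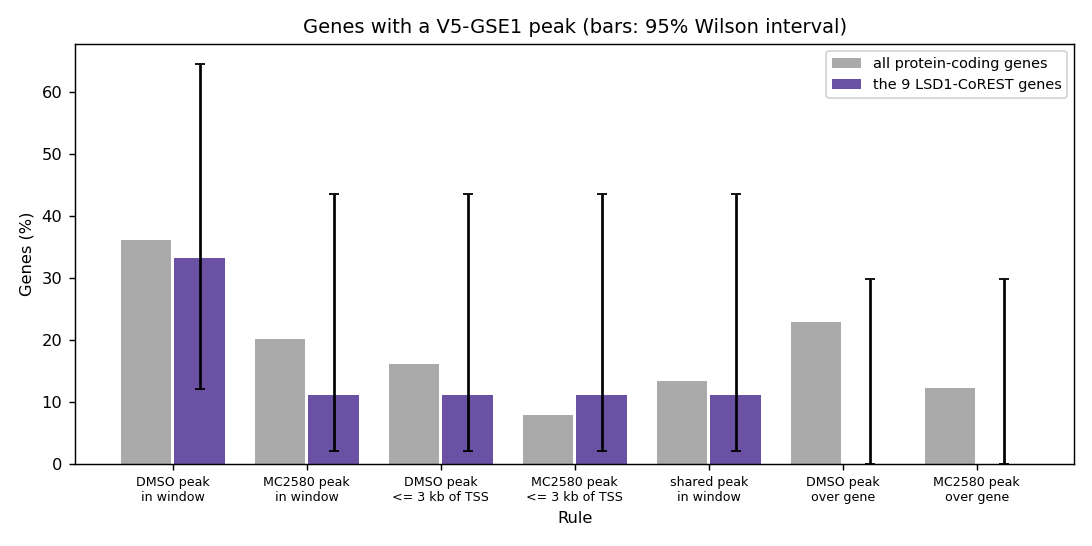
Percentage of genes that met each rule, for all protein-coding genes (grey bars) and the 9 LSD1-CoREST genes (purple bars, with 95% Wilson intervals that cover counting error only). All 7 grey bars, from 7.87% to 36.2%, lie within the intervals of the purple ones beside them.

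Longer windows hold more peaks, and the windows of these genes ran from 46.3 kb (HMG20B) to 232.1 kb (PHF21A). Among genes with windows of 111.7 kb or more 45.2% had a DMSO peak, and of the 4 members in that class (RCOR1, HDAC2, PHF21A and ZMYM2) 1 did. Among genes with windows from 67.5 to 111.7 kb 38.7% did, and of the 4 members there (KDM1A, KDM1B, RCOR3 and HDAC1) 2 did. HMG20B, the member with a shorter window, had none, beside 27.3% of genes in its class. All windows together made up 1.14 Mb. They held 3.51 DMSO peaks per Mb against 9.41 in the windows of all protein-coding genes. For MC2580 the values were 0.877 against 5.53. These backgrounds are means, and peaks were spread unevenly. Over all 1 Mb bins the median was 2 and the mean 6.82 DMSO peaks, and 0 and 4.18 for MC2580. Whole chromosomes with members held from 1.7 (chromosome 14) to 24.4 (chromosome 19) DMSO peaks per Mb. Chromosome 1 held 2.87, and 0.892 for MC2580. No depletion at these genes is read from the densities.

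The chromosomes of the members differed in their background too. On chromosome 1, which holds KDM1A, RCOR3 and HDAC1, 25.3% of genes had a DMSO peak in their window and 6.94% an MC2580 peak. On chromosome 14, with RCOR1, the shares were 20% and 8.12%, from 182 DMSO peaks and 46 MC2580 peaks on the whole chromosome. The share for DMSO was 38.6% on chromosome 6 (KDM1B and HDAC2), 41.8% on chromosome 11 (PHF21A), 40.2% on chromosome 13 (ZMYM2) and 35.1% on chromosome 19 (HMG20B). The 1 Mb bins around the members held from 0 (HDAC2) to 13 (KDM1A) DMSO peaks, beside a median of 2 and a 90th percentile of 13 over all bins.

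The RefSeq table gave 14 promoter sequences of 300 bases each, which reach from upstream of a start site to just past it, for the 9 genes. Of these 1 lay under a DMSO peak and 1 under an MC2580 peak, the RCOR1 promoter in both cases, beside 5.02% and 1.92% of 21613 promoters of protein-coding genes. The 13 promoters of the other 8 genes ranged from 39.3% GC with 10 CpGs at ZMYM2 to 82.7% with 46 at PHF21A, which also had a promoter with 58% and 1 CpG. The medians over all promoters were 62.3% and 21.

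Other genes of LSD1 complexes were examined by the same window rule. Of 23 such genes 12 had a DMSO peak and 9 an MC2580 peak, beside the 36.2% and 20.1% of all protein-coding genes given above, and 6 of the 23 had windows of 111.7 kb or more. The list was drawn up with earlier results of these data known, so its counts are a description. Among 7 further CoREST partners 4 had a DMSO peak and 3 an MC2580 peak, among 11 subunits of NuRD, the other deacetylase complex that holds LSD1, 4 and 2 did, and among 5 factors with a SNAG domain, the short motif that binds LSD1, 4 and 4 did. RCOR2 and CHD4, named after their values were seen, missed the window narrowly in DMSO, with peaks 21524 and 20576 bp away. Of the RCOR family RCOR1 alone thus had a peak in the window.

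A peak within 3 kb of an own start site was found for 7 of the 23 genes in DMSO and for 4 in MC2580, beside 16.1% and 7.87% of all protein-coding genes. The highest score among these peaks was that of GFI1, a repressor that recruits LSD1, at 417.8 for a peak over its canonical start (chromosome 1, 92485263 to 92487443), which overlapped an MC2580 peak with a score of 71.3. GFI1B, its paralog, had 3 such DMSO peaks with scores up to 261.04 and no such MC2580 peak. ZNF217, a zinc-finger partner of CoREST, had 3 with scores from 71.03 to 313.48 and none in MC2580. The GFI1B peak with the highest score, 768.72 in DMSO, lay downstream of the gene, 15957 bp from its nearest start site. It overlapped an MC2580 peak with a score of 269.1.

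Most of the peaks at further CoREST partners lay at a few loci. GSE1 itself had 18 DMSO and 8 MC2580 peaks over a span of 506680 bp, 5 and 1 of them within 3 kb of a start site. One of these 5 (chromosome 16, 85612673 to 85613960, score 165.42) overlapped a coding exon, and whether reads from the added GSE1 copy took part in it was not tested. CTBP1, a corepressor, had 10 DMSO and 3 MC2580 peaks in its window, in a 1 Mb bin with 89 and 69 peaks. CTBP2 had 6 and 3, of which only 1 MC2580 peak (score 50.16) lay within 3 kb of a start site. Of the NuRD genes MTA2 and GATAD2A had DMSO promoter peaks with scores of 52.43 and 53.86, both near the threshold.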

How the data were processed

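ChIP-seq with an anti-V5 antibody and inputs came from 6 libraries, 1 per group. Reads were aligned to hg38 by the authors with Bowtie, and unique matches with at most 2 mismatches were kept. MACS, at a p-value of 1e-05, then gave the peaks of each condition, with its input and the EV ChIP as background. How these calls were combined is not given in the sources used here. The authors deposited 2 lists of peaks with a score each, and each list was assigned to its condition by its name. Depth was unknown.

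Peaks were matched to GENCODE version 44 genes with Python 3.11.15, numpy 2.4.6 and pandas 2.3.3. No peak ended beyond its hg38 chromosome. Positions count from 1. Distances run from the nearest peak base. Where a start site is named they run to that of any annotated transcript unless the canonical one is given, and promoter means within 3 kb of one. Where neither a start site nor another peak is named they run to the gene span. Lists shared a peak at 1 bp of overlap. No test was made, since there was 1 library per condition. Shares have Wilson 95% intervals.

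The genes, gene lists and words were chosen with earlier results of these data known. All 9 members are named, further genes only for a peak within 3 kb of a start site, as neighbours in a member's window, or where stated. The interval functions were tested on simulated data. Alternatives were other windows, a score of at least 100, removal of wide peaks, merging, other overlap rules and other promoter rules. Input and EV libraries entered only as background and were not analysed here. One sequence and the values computed from it are not reported here.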

Additional observations from a re-analysis of the deposited data

How the results depend on the processing

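No paired analysis was possible because each condition had a single library, and no replicate could be left out. Of 72 alternative values 64 stayed within 1.5 times the main count or median, or within the interval of the main share, and 8 did not. Some of the 64 had little room to move, so the tally is no measure of stability. The RCOR1 peaks ended 60 and 122 bp before the start site, so flanks of 5 or 50 kb had to keep them as promoter peaks. The share of DMSO peaks was judged by an interval of 4.56 to 69.9, so 50% with flanks of 5 kb counted as unchanged. Without flanks (a window of 0 kb) the genes with a DMSO peak, an MC2580 peak, a promoter peak in either list or a shared peak all numbered 0. The peaks of each list numbered 0 too, since all 5 peaks were found outside the gene spans. With flanks of 5 kb 2 DMSO peaks were left, those at RCOR1 and HDAC1. With 50 kb there were 6 DMSO peaks at 4 genes. Requiring a score of at least 100 left 3 DMSO peaks at 3 genes, and RCOR1 kept its shared peak under each overlap rule. Without flanks no share or median could be had. Depth was unknown and limits what an absent peak can show.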
